A study of Caenorhabditis elegans with 4 samples.

Results

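The middle of chromosome V held 264 of the 3006 peaks at which NHR-11 was mapped on Caenorhabditis elegans chromatin in L1 larvae, and it held more peaks per megabase than the arms of the same chromosome. The members were chosen by position alone: every peak of the series list on V whose midpoint lay from 7 to 13.9 Mb on build WS220. This stretch of 6.9 Mb made up 33.0% of the length of V and carried 43.0% of its 614 peaks. By the same limits it held 124 of 1247 peaks in the list of ChIP replicate 1 and 109 of 1190 in that of replicate 2.

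NHR-11 belongs to the nuclear hormone receptors, transcription factors that bind DNA through zinc fingers and often change their activity when a small lipophilic ligand binds. This family is greatly expanded in nematodes, and the ligands and target genes of most of its worm members are not known. On the autosomes of C. elegans, the central stretch is rich in conserved genes and recombines little, whereas the arms hold more repeats and more young, fast-evolving gene families. On the arms of V these families include many chemoreceptor genes.

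The 2 ChIP libraries and the 2 input libraries came from hermaphrodites of strain OP305, in an unc119(ed3) background. Their transgene wgIs305 was introduced by bombardment and outcrossed 3 times. It encodes NHR-11 joined to TY1, EGFP and FLAG tags, beside an unc119 copy, which marks transformed animals in this background. Every group carries this transgene, no untagged strain was analysed here, and the listed genotype names no mutation of nhr-11 itself. The stage label reads L1 26dC, while the protocol gives growth at 20 °C. Chromatin was fixed with 2% formaldehyde and collected with anti-GFP antibodies, and lysate set aside before that step gave the input DNA. One peak list for each ChIP replicate and 1 for the series were examined. Neither values of the input libraries nor read depths were given here, so the depth of a peak is not known. Peak height means −log10 of the value that the authors give for a peak, which was treated here as a q-value. A height of 3 is then a q of 0.001, the weakest that any list holds. Peak height reflects enrichment, but also depth and width, and is no measure of occupancy. Whether the replicates came from different cultures is not stated in the labels.

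Peaks were denser in central V than on the arms in each of the 3 lists. The series list gave 38.3 peaks per Mb in central V and 25.0 on the arms, of which the left arm had 28.0 and the right arm 22.0. The ratio of central V to the arms was 1.53. In replicate 1 there were 18.0 peaks per Mb in central V and 11.5 on the arms, a ratio of 1.56. In replicate 2 there were 15.8 in central V and 9.57 on the arms, a ratio of 1.65. Over the replicates this came to 16.9 ± 1.54 peaks per Mb in central V and 10.5 ± 1.36 on the arms (SD, n = 2 each). The difference exceeded the spread between replicates, but an exact two-sided sign-flip permutation test over 2 lists gave p = 0.5, which is the smallest it can give. Peaks covered 1.59% of central V and 1.10% of the arms in the series list, against 1.43% over the rest of the series.

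The higher density was found among strong and weak peaks alike. Of the 500 peaks with the lowest q in the whole series list, central V held 35, or 5.07 per Mb, and the arms 44, or 3.14 per Mb. Among ranks 501 to 1000 the density was 6.23 per Mb in central V and 4.14 on the arms. Among ranks 1001 to 2000 it was 15.1 per Mb in central V and 8.64 on the arms, the widest ratio of the 4 rank classes at 1.74. Among ranks 2001 to 3006 it was 11.9 per Mb in central V and 9.07 on the arms, the narrowest at 1.31.

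**Figure D1:**
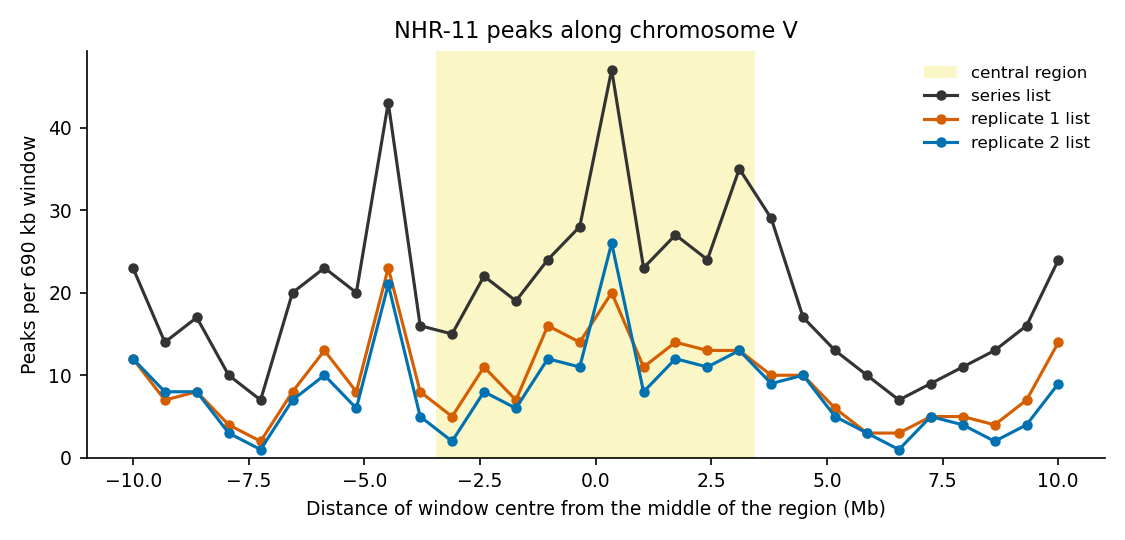
Number of NHR-11 peaks in consecutive windows of 690 kb along chromosome V (vertical axis) by distance of the window from the middle of the region in Mb (horizontal axis), for the series list and each replicate list; the shaded band is the central region. The fullest window lies just right of the middle in the series list, with 47 peaks, and a second window outside the region, to its left, holds 43.

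Within the region the peaks were spread unevenly, with a maximum just right of its middle. Cut into 10 windows of 690 kb, central V had 15 to 47 series peaks per window, with a median of 24. The 20 whole windows on the arms had 7 to 43, with a median of 16, so the ranges overlapped widely. The window with the most series peaks on V ran from 10.45 to 11.14 Mb and held 47 series peaks, 20 replicate 1 peaks and 26 replicate 2 peaks. It was the fullest of the region in every list and held 17.8% of the members. On the arms, the window from 5.62 to 6.31 Mb held 43 series peaks, 23 replicate 1 peaks, more than any window of central V, and 21 replicate 2 peaks. Without the window from 10.45 to 11.14 Mb, central V kept 34.9 series peaks per Mb. This was 1.40 times the density of the arms, from which no window was left out.

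The left end of the region was the sparsest part. Its first window, from 7 to 7.69 Mb, held 15 series peaks, 5 replicate 1 peaks and 2 replicate 2 peaks, and a single series peak there was found in both replicates. The 7 members in the first 100 kb had heights of 3.29 to 5.48, and none lay in a cluster or was found in both replicates. The 2 longest peak-free stretches of the region lay between 7237399 and 7415607 (178 kb) and between 12027464 and 12184379 (157 kb), and the next between 7580662 and 7727019 (146 kb). Gaps longer than 50 kb numbered 43 and made up 54.1% of the region.

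The limits cut through no strong peak. Just inside the left limit, the peak at 7022885 to 7023434 had a height of 5.35, and just outside it the peak at 6997877 to 6998639 had 3.88. Just inside the right limit, the peak at 13869566 to 13869900 reached 14.6 and was found in both replicates, whereas the peak just outside, at 13906186 to 13906521, had 3.04 and was found in neither.

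Median height and width did not differ from those of the arms in a common direction across the lists. The median height in the series list was 5.34 in central V (interquartile range 3.99 to 8.26) and 5.10 on the arms (3.77 to 8.68). Replicate 1 gave medians of 4.49 in central V and 4.35 on the arms, while replicate 2 gave 4.54 in central V and 4.87 on the arms, the opposite direction. Median width was 388 bp in central V and 362.5 bp on the arms in the series list. It was 393 bp in central V and 367 bp on the arms in replicate 1, but 359 bp in central V and 372.5 bp on the arms in replicate 2, where the direction again turned. For both measures the exact sign-flip permutation test over the 2 replicate lists gave p = 1.

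Very high and very wide peaks formed a smaller share of central V than of the rest of the series. Peaks above a height of 10 numbered 50 in central V (18.9%) and 642 in the rest of the series (23.4%). In replicate 1 the share was 12.9% in central V and 20.6% elsewhere, and in replicate 2 it was 15.6% in central V and 22.1% elsewhere. Peaks wider than 1 kb were 5 of the 264 members (1.89%), against 165 elsewhere (6.02%). Replicate 1 had 2.42% in central V and 7.57% elsewhere, and replicate 2 had 0 peaks of this width in central V and 6.57% elsewhere. The arms of V, with 19.7% above a height of 10, were close to central V in this respect. These shares were not tested, because peaks of a list come from shared libraries and are not replicates. At the other extreme, 6 members were narrower than 50 bp, the narrowest 3 bp long. Height and width went together across the 264 members, with a Spearman's rho of 0.53, as across all series peaks, where it was 0.57. Both values come from the same caller and reads, so this is a description.

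The 20 highest peaks of central V were found in both replicates. Their heights in the series list ran from 16.9 to 72.5 and their widths from 388 to 1872 bp, and 13 of them lay right of the middle of the region. Only 4 members ranked among the 100 lowest q-values of the whole series list, and those 4 are described first.

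The highest member, at V 10897110 to 10897592 (483 bp), had q = 3.442e-73 and ranked 28 in the series list. Its height was 72.5 in the series list, with 39.8 in replicate 1 and 43.2 in replicate 2. It was the highest peak of the region in every list. Its midpoint lay 2.55 kb from that of a weak series peak on its left (height 4.38, found in neither replicate) and 28.6 kb from that of the next peak on its right.

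The second, at 9343108 to 9344979, was the widest member at 1872 bp. It had a height of 65.8 in the series list, with 30.8 in replicate 1 and 32.7 in replicate 2. In replicate 1 this single series peak met 2 separate peaks, and the higher of them was 1007 bp wide, while the replicate 2 peak was 626 bp wide.

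The third and the fourth differed in which replicate was higher. The peak at 11082309 to 11082978 had a height of 51.0 in the series list, with 23.0 in replicate 1 and 28.2 in replicate 2. The peak at 9546763 to 9547226 had 49.7 in the series list, with 28.6 in replicate 1 and 24.2 in replicate 2. Both ranked 66 or better in every list.

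**Figure D2:**
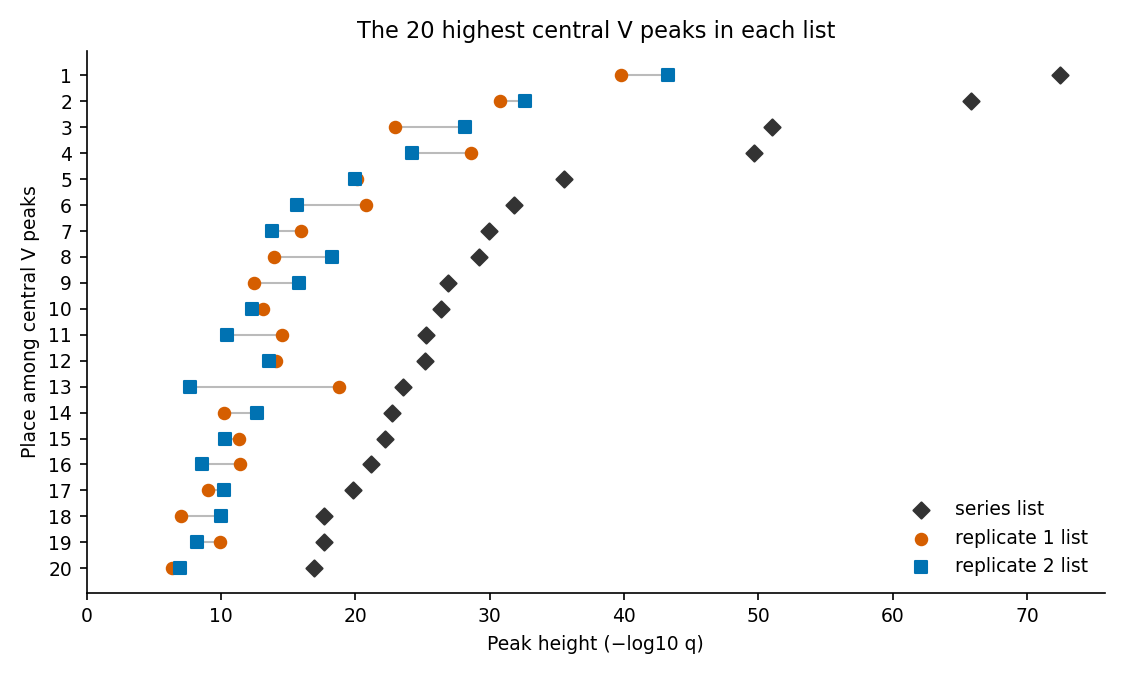
Heights (−log10 q, horizontal axis) of the 20 highest central V peaks, in order of their series height (vertical axis), for the series and replicate lists; a grey line joins the replicates. Series heights run from 72.5 down to 16.9, and the replicates lie farthest apart at the thirteenth peak, where they are 18.8 and 7.72.

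The next peaks were lower by a clear step. At 9789796 to 9790420 the heights were 35.6 in the series list, with 20.1 in replicate 1 and 20.0 in replicate 2, the closest match among the 20. At 10466335 to 10467457 they were 31.8 in the series list, with 20.8 in replicate 1 and 15.6 in replicate 2. This peak was 1123 bp wide in the series list and 1110 bp in replicate 1, but 508 bp in replicate 2.

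From the seventh place on, series heights stayed below 30. The peak at 7727923 to 7728482, the only one of the 20 left of 9.07 Mb, had 15.97 in replicate 1 and 13.8 in replicate 2. The peak at 11079944 to 11080991 (1048 bp, the third widest member) had 13.97 in replicate 1 and 18.3 in replicate 2. It lay 2.18 kb from the third-highest peak, in a cluster described below.

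The remaining 12 of the 20 began at 11764239, 11531771, 11979883, 13678539, 12291523, 12343538, 9128457, 11521426, 9730882, 12869910, 9175197 and 10715325, from the highest to the lowest. Their series heights were between 16.9 and 26.9. The replicates matched least at 12291523 to 12292029, with a series height of 23.5 and replicate heights of 18.8 and 7.72 in replicates 1 and 2 (mean 13.3 ± 7.84, SD, n = 2). Replicate 1 was the higher at 11 of the 20 peaks and replicate 2 at 9.

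Of the 264 members, 84 (31.8%, exact 95% interval 26.2 to 37.8%) overlapped a peak by at least 1 bp in both replicate lists. The same held for 28.4% of all series peaks and for 28.6% of those on the arms of V (23.9 to 33.6%). A further 37 members (14.02%) were found in replicate 1 only and 19 (7.2%) in replicate 2 only, which left 124 (47.0%) found in neither. Over the whole series list 50.5% were found in neither, and 49.5% in at least 1, against 140 members (53.0%, 46.8 to 59.2%) in at least 1. The shares in central V were therefore near those of the whole list. The intervals cover counting error only and treat peaks as independent.

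Support followed height. The 84 members found in both replicates had a median series height of 11.7 and a median width of 479.5 bp. The 37 found in replicate 1 only had a median height of 5.85, the 19 found in replicate 2 only 5.73, and the 124 found in neither 3.98, with a median width of 322 bp for the last group. With the members ordered by height and cut into 4 equal parts of 66, the numbers found in both replicates were 63, 21, 0 and 0. Every replicate list stops at a q of 0.001, so a weak series peak has less chance of a counterpart by construction.

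Because of that, support was also compared at matched rank. Of series peaks 1 to 500, all 35 in central V, 43 of 44 on the arms and 97.6% of all peaks were found in both replicates. Of peaks 501 to 1000, 37 of 43 in central V (86.0%, exact 95% interval 72.1 to 94.7%) and 46 of 58 on the arms (79.3%, 66.6 to 88.8%) were found in both, against 61.4% over all chromosomes. All 43 of these members were found in at least 1 replicate, against 92.2% over all chromosomes. Of peaks 1001 to 2000, 12 of 104 in central V (11.5%) and 10 of 121 on the arms (8.26%) were found in both, against 5.70% over all chromosomes, and 56 of 104 in central V (53.8%) and 72 of 121 on the arms (59.5%) in at least 1, against 46.7% over all chromosomes. Of peaks 2001 to 3006, 0 of 82 in central V (exact 95% interval 0 to 4.4%) and 1 of 127 on the arms were found in both, against 0.199% over all chromosomes, and 6 in central V (7.32%) and 7 on the arms (5.51%) in at least 1, against 5.86% over all chromosomes. The intervals of central V and of the arms overlapped in every class. In ranks 501 to 1000 the rest of the series had 59.1% found in both (54.4 to 63.6%), below the intervals of central V and of the arms. In the other classes the intervals of central V and of the rest of the series overlapped. These differences were not tested.

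**Figure D3:**
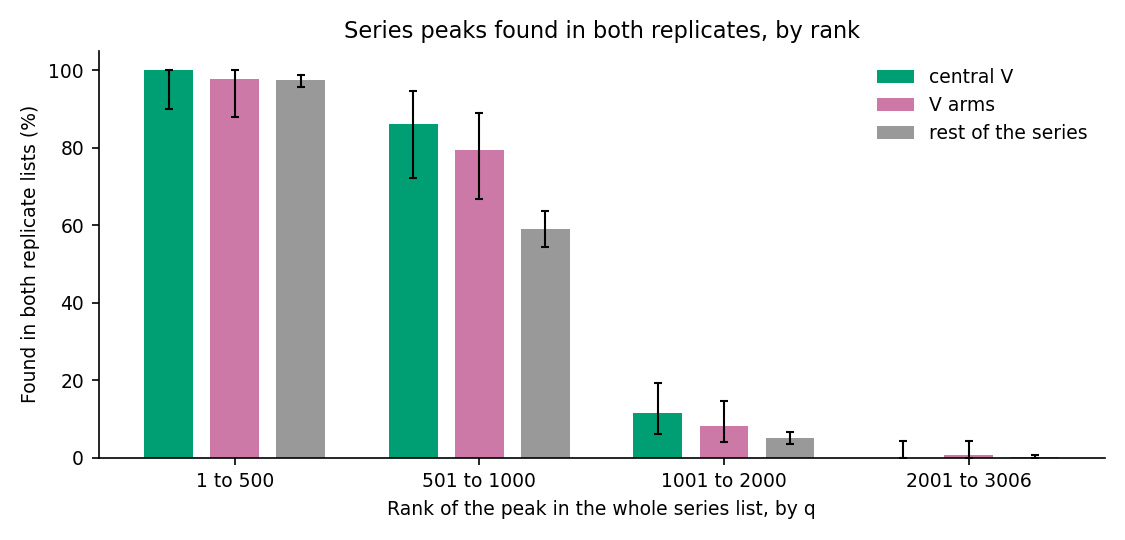
Share of series peaks found in both replicate lists (%, vertical axis) by rank in the whole series list (horizontal axis), for central V, the arms of V and the rest of the series; bars are shares and lines are exact 95% intervals. In ranks 501 to 1000 the shares are 86.0% in central V, 79.3% on the arms and 59.1% in the rest of the series, and below rank 2000 they are near 0 everywhere.

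Single members departed from this order, since the lowest member found in both replicates was lower in the series list than the highest found in 1 or in neither. The highest member found in neither replicate, at 8667286 to 8667886, had a height of 7.26 and ranked 1045. The highest found in 1 replicate only, at 12306212 to 12307242 (1031 bp), had a series height of 11.9 and a height of 8.02 in replicate 1. The lowest member found in both, at 7970404 to 7970814, had 6.05 in the series list, with 3.25 in replicate 1 and 3.26 in replicate 2.

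Read from the replicate lists, the overlap was higher. Of the 124 replicate 1 peaks in central V, 85 (68.5%) overlapped a replicate 2 peak, against 69.8% for the whole replicate 1 list. Of the 109 replicate 2 peaks, 85 (78.0%) overlapped a replicate 1 peak, against 73.7% for the whole list. A series peak was met by 122 of the 124 (98.4%, against 97.4% over all chromosomes) and by 103 of the 109 (94.5%, against 97.0% over all chromosomes).

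The 8 replicate peaks in central V without a series peak were weak. The highest in replicate 2, at 11074117 to 11074444, had a height of 4.06 and lay close to a series peak, with its edge 35 bp from that peak's. The highest in replicate 1, at 12509804 to 12510287, had a height of 3.38 and met a replicate 2 peak at 12509903 to 12510284 with a height of 3.68. This was the only site of the region called in both replicates and not in the series list, and its nearest series peak was 8572 bp away.

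Heights of the 84 members found in both replicates were similar in the replicate lists. Median height was 5.32 in replicate 1 and 5.24 in replicate 2, and the log2 ratio of replicate 1 to replicate 2 had a median of 0.01 with an SD of 0.43 over peaks. On the arms the median log2 ratio was 0.05 with an SD of 0.47 over 100 peaks. Replicate 1 was higher at 45 members and replicate 2 at 39, and 96.4% of the 84 ratios were within 2-fold. Over all 854 series peaks found in both replicates, replicate 1 was higher at 441 and replicate 2 at 413, and 95.8% were within 2-fold. Only peaks with a height above 3 in both lists entered, which favours ratios within 2-fold by construction. Across the 84 members Spearman's rho was 0.77, and Pearson's r was 0.87 on log heights. These are correlations over peaks called by the same method on both lists, not over independent samples. Among the 84 members, the 3 that differed by more than 2-fold began at 12291523, 13462697 and 10858276. Replicate 1 was higher at the first and the second and replicate 2 at the third. Members found in 1 replicate only had no height in the other list and were not compared.

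The series height exceeded both replicate heights at all 84 members and was close to their sum. It did so at 98 of 100 such peaks on the arms and 849 of 854 over all chromosomes, so this was general to the list. Divided by the sum of the replicate heights, the series height had a median of 1.005 in central V (interquartile range 0.94 to 1.05). On the arms the median was 1.02 (0.97 to 1.06). Midpoints of the 84 members were compared too, though only peaks overlapping by at least 1 bp entered, which keeps offsets small by construction. The midpoint of the replicate 1 peak lay a median of 23 bp from that of the series peak, that of replicate 2 a median of 23.3 bp, and the midpoints of both replicates a median of 40 bp from each other. At 68 of the 84 members the replicate midpoints lay within 100 bp. The same count was not made for the arms or for all chromosomes.

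**Figure D4:**
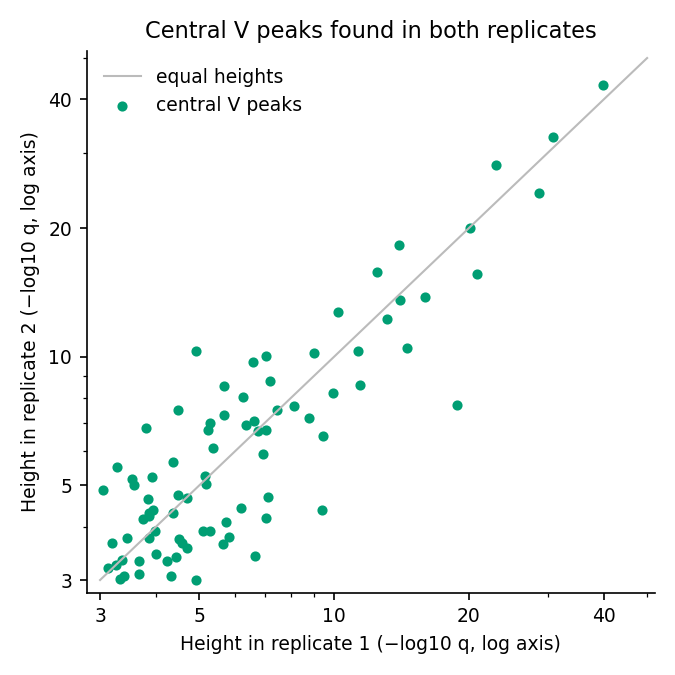
Height in replicate 1 (horizontal axis) against height in replicate 2 (vertical axis) for the 84 central V peaks found in both lists, as −log10 q on log axes; the grey line marks equal heights. The points follow the line from about 3 to the highest peak, at 39.8 and 43.2. The 3 pairs more than 2-fold apart are 4.91 and 10.3, 9.38 and 4.37, and 18.8 and 7.72 in replicates 1 and 2.

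Neighbouring peaks lay closer together in central V than on the arms in each list. Median spacing between midpoints was 13.7 kb in central V (interquartile range 3.78 to 35.1 kb) and 18.1 kb on the arms (3.83 to 56.3 kb) in the series list. In replicate 1 the median was 33.0 kb in central V and 50.4 kb on the arms, and in replicate 2 it was 35.5 kb in central V and 58.7 kb on the arms. The exact sign-flip permutation test over the 2 replicate lists gave p = 0.5, the smallest possible. Spacing restates density in part. At short range the stretches were alike, since 29.7% of neighbours in central V and 29.3% on the arms were less than 5 kb apart in the series list. The upper quartile differed more, because the arms held longer peak-free stretches.

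Clusters, defined as 3 or more peaks joined by gaps of at most 5 kb, held a similar share of peaks inside and outside the region in the series list, and a smaller share inside it in both replicate lists. In the series list, central V had 16 clusters with 66 members (25.0%), the arms had 23 clusters with 91 peaks (26.0%), and 24.0% of all series peaks lay in clusters. Of the 16 clusters, 9 had 3 peaks, 2 had 4, 3 had 5, 1 had 7 and 1 had 9. At least 1 peak found in both replicates was held by 14 of the 16. No background was worked out for that count. With 31.8% of members found in both, many groups of 3 or more peaks would hold such a peak anyway. Of the 66 clustered members, 26 (39.4%, exact interval 27.6 to 52.2%) were found in both replicates. Outside clusters it was 58 of 198 members (29.3%, 23.1 to 36.2%), so the intervals overlapped. Found in neither replicate were 33 of the 66 clustered members and 91 of the 198 others. In the replicate lists far fewer peaks met the definition. Replicate 1 had 1 cluster with 4 peaks in central V (3.23% of its peaks there), against 14.3% of its peaks on the arms and 12.6% of its whole list. Replicate 2 had 4 clusters with 13 peaks in central V (11.9%), against 17.9% on the arms and 14.7% of its whole list. Its arms differed, with 25.6% on the left arm and 5.77% on the right, the latter below central V. In replicate 1 the left arm had 14.9% and the right arm 13.4%.

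The largest cluster lay at 10857242 to 10874515, within the fullest window, and held 9 peaks over 17.3 kb. Its highest peak, at 10858276 to 10858777, had a series height of 15.3, with 4.91 in replicate 1 and 10.3 in replicate 2. The others found in both replicates had series heights of 7.93, 9.19 and 7.27. The remaining 5, with heights of 3.17 to 4.91, were found in neither. Each replicate list thus had 4 separate peaks here, at the same 4 sites, and none at the 5 weak peaks. The region's highest peak, described above, lies to the right of this cluster and outside it.

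A second cluster, at 11071389 to 11084039, combined strong and weak peaks. Its 7 peaks over 12.7 kb included the third-highest member (51.0) and the eighth (29.2), near its right end. Near its left end, the peak at 11071389 to 11071864 had 15.7 in the series list, with 9.43 in replicate 1 and 6.53 in replicate 2. Next to that, the peak at 11073285 to 11073909 had 12.0 in the series list, with 4.92 in replicate 1 and 3.01 in replicate 2. The other 3 had heights of 3.95 to 4.99 and were found in neither, and 1 of them was 14 bp wide. The strong peaks left and right in the cluster were thus separated by weak calls only.

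**Figure D5:**
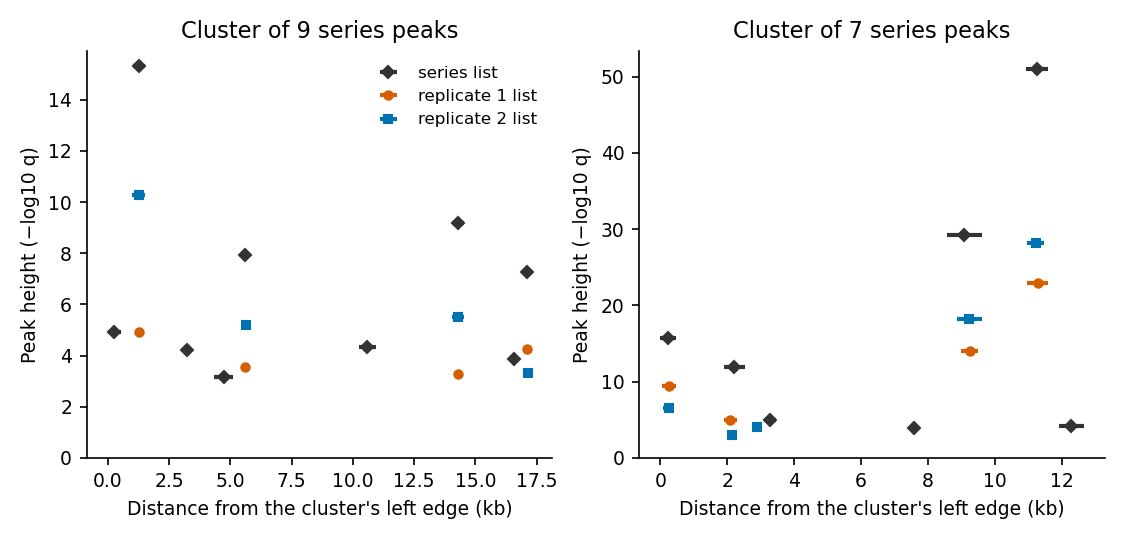
Height (−log10 q, vertical axis) and extent (horizontal bars, in kb from the left edge of the cluster) of the peaks in the clusters of 9 (left) and 7 (right) series peaks, in the series list and each replicate list. In both clusters each list calls the same 4 main sites, and the other series peaks, all below 5, overlap no replicate peak; replicate 2 has 1 further peak of 4.06 in the right-hand cluster.

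The cluster at 13081201 to 13090654 was called in every list. Its 5 series peaks over 9.45 kb had heights of 7.11, 10.0, 14.8, 4.15 and 8.81 from left to right, and all but the 4.15 peak were found in both replicates. In replicate 1 these 4 had 3.73, 5.15, 7.18 and 4.48, and in replicate 2 they had 4.17, 5.25, 8.75 and 4.74. The order of heights was the same in the 3 lists.

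The other clusters of 4 or 5 were led by 1 or 2 peaks. At 10711498 to 10720132 the series heights were 6.65, 3.17, 16.9, 14.04 and 7.00, and the 2 highest were found in both replicates. At 13462697 to 13473906 the leftmost of 5 peaks had 14.3, with 9.38 in replicate 1 and 4.37 in replicate 2, and the rest were at 3.62 to 6.60. Among the clusters of 4, that at 10174601 to 10178573 had a highest peak of 15.5 and that at 10347679 to 10356262 one of 9.44. In each of these the highest peak was the only one found in both replicates.

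Set against the middle 33.3% of each other chromosome, central V was neither the densest nor the sparsest. The series list gave 38.3 peaks per Mb in central V, between X and II, against densities of 44.2 for I, 39.1 for II, 48.6 for III, 16.9 for IV and 23.9 for X. Replicate 1 gave 18.0 in central V, against 4.65 to 21.6 on the other chromosomes, and replicate 2 gave 15.8 in central V, against 3.61 to 20.3. The place of central V differed in these lists. Replicate 1 put it above I (16.7) and II (13.6), and replicate 2 just above II (15.7) and below I (17.1). No test was made of these differences.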

How the data were processed

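Chromatin bound by tagged NHR-11 and input DNA were sequenced from OP305 larvae in 4 libraries. The peak lists of both ChIP replicates and of the series were used. Peaks were called with PeakSeq on WS220, per the file headers and source column. The sources used here do not name the aligner or versions, nor how input was used or replicates combined. Each peak carries a value deposited by the authors, below 0.001 throughout, which was treated as a q-value. Its product with the peak's rank number never fell with that number beyond rounding, in any list. A p-value that rose with the rank number would also pass, so this check cannot tell it from a q-value. Another 12, 3 and 1 rank numbers of the series, replicate 1 and replicate 2 lists were not analysed here.

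Heights are −log10 of q. Overlap means 1 bp or more; where several replicate peaks met a series peak, the highest was used. Chromosome length was the last peak end in any list. Shares carry exact Clopper-Pearson 95% intervals. With 2 replicate lists, the exact sign-flip test cannot go below 0.5, and peaks were not tested as replicates. SciPy 1.17.1, NumPy 2.4.6, pandas 2.3.3 and matplotlib 3.10.9 were run under Python 3.11.15, and all 7 functions tested on simulated lists returned the planted values. The region and rules were chosen with earlier results of these data known. Named peaks are the 20 highest, clusters of 4 or more, the 3 widest, the highest found in neither replicate, the highest replicate peaks without a series peak and those beside the limits. The 4 other positions given (the highest peak found in 1 replicate, the lowest found in both, and 2 with unequal replicates) were picked after their values were seen. A WS220 genome and annotation were not used here, so no gene or sequence is given for a peak.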

Additional observations from a re-analysis of the deposited data

How the results depend on the processing

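Of 49 alternatives, 23 kept a value within the spread between replicates, within its exact interval or within 1.5 times of its count, 20 moved it further and 6 turned its direction. The density ratio of central V to the arms stayed above 1 in all 7: it was 1.53, and 1.56 to 1.65 in the replicate lists, 1.61 in the lower-q 50%, 1.70 among peaks found in both replicates and 1.60 with limits 0.5 Mb further out. The spacing ratio stayed below 1 in all 7: it was 0.755, and 0.605 to 0.655 in the replicate lists, 0.605 in the lower-q 50%, 0.417 among peaks found in both replicates, 0.720 with wider and 0.820 with narrower limits. The difference in median height, 0.246, was 0.146 in replicate 1 and -0.336 in replicate 2, -0.659 in the lower-q 50% and -0.300 among peaks found in both replicates. That in median width, 25.5 bp, was 26 bp in replicate 1, -13.5 bp in replicate 2, -9 bp in the lower-q 50% and -29.5 bp among peaks found in both replicates. The number of clusters, 16, moved most with the set of peaks used: it ranged from 1 to 4 in the replicate lists and was 3 in the lower-q 50% and 1 among peaks found in both replicates, against 8 with a joining gap of 2 kb and 28 with 10 kb; fewer peaks or a shorter gap give fewer clusters by construction. The share found in both replicates, 31.8%, was 25.0% with midpoints within 100 bp. The share found in at least 1, 53.0%, was 43.5% in the lower-q 50% of each list, and 39.0 to 45.8% with 1 replicate left out. For the other changes the cause was not tested. No paired analysis was possible because only the ChIP samples have lists here, so the same-numbered input samples gave no values to pair with them; central V and the arms were compared within each replicate list. Read depth is not known, so its limit on weak peaks cannot be given.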
